A study of Mus musculus with 6 samples.

Results

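The 9 genes described here, Slc7a11, Gclc, Gclm, Gss, Gsr, Glrx, Ggt1, Chac2 and Oplah, encode proteins of cystine uptake and of glutathione synthesis, reduction and breakdown. They were chosen by name, and the 13 non-control array probes whose transcript accession belongs to one of them were taken, out of 41174 non-control probes for 32301 genes and unmatched transcripts on the array. RNA of whole liver was measured at 5 weeks of age on one-colour (Cy3) Agilent arrays, 1 array per sample, with 3 sMaf CKO samples, whose small Maf genes were knocked out in the liver only, and 3 samples of control mice labelled wild type. All mice were of a mixed 129Sv/J, C57BL/6J and ICR background and were fed chow. The labels name neither the deleted alleles, nor the Cre driver, nor the sex, and the submitters call the RNA samples of a genotype independent.

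Glutathione is the main soluble thiol of cells, and the liver makes and exports large amounts of it. Cystine enters through the xCT exchanger. Glutamate-cysteine ligase joins cysteine to glutamate in the rate-limiting step, glutathione synthetase adds glycine, glutathione reductase recycles the oxidised form with NADPH, and gamma-glutamyl enzymes break it down. Several of these genes are known targets of NRF2, which binds antioxidant response elements as a heterodimer with a small Maf protein, and this is the link that the comparison of sMaf CKO with control liver bears on.

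Of the 9 genes, 7 were tested and none of these passed limma's test over all 21059 genes and transcripts (Benjamini-Hochberg adjusted p under 0.05), against 0.541% of all features (0.385% higher and 0.157% lower in sMaf CKO liver). In the levels themselves, Gclc and Gclm, the subunits of glutamate-cysteine ligase, and Glrx, glutaredoxin 1, were 1.90- to 2.05-fold lower in sMaf CKO liver, with every sMaf CKO array below every control array for each of these genes. Gss, glutathione synthetase, was 1.22-fold higher. Chac2, Oplah and, by its brightest probe, Gsr overlapped between genotypes, while 1 of the 3 Gsr probes did not. Slc7a11 and Ggt1 were at or near background. The signals of the 7 tested genes were well above background on all 6 arrays, so no array was left out for any of them. Of these 7, 3 had an unadjusted p under 0.05, all lower in sMaf CKO liver, and none was higher at that level. Over all features 8.1% were lower and 8.71% higher by that rule. The median log2 fold change of the 7 was -0.51, against -0.05 over all features.

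**Figure D1:**
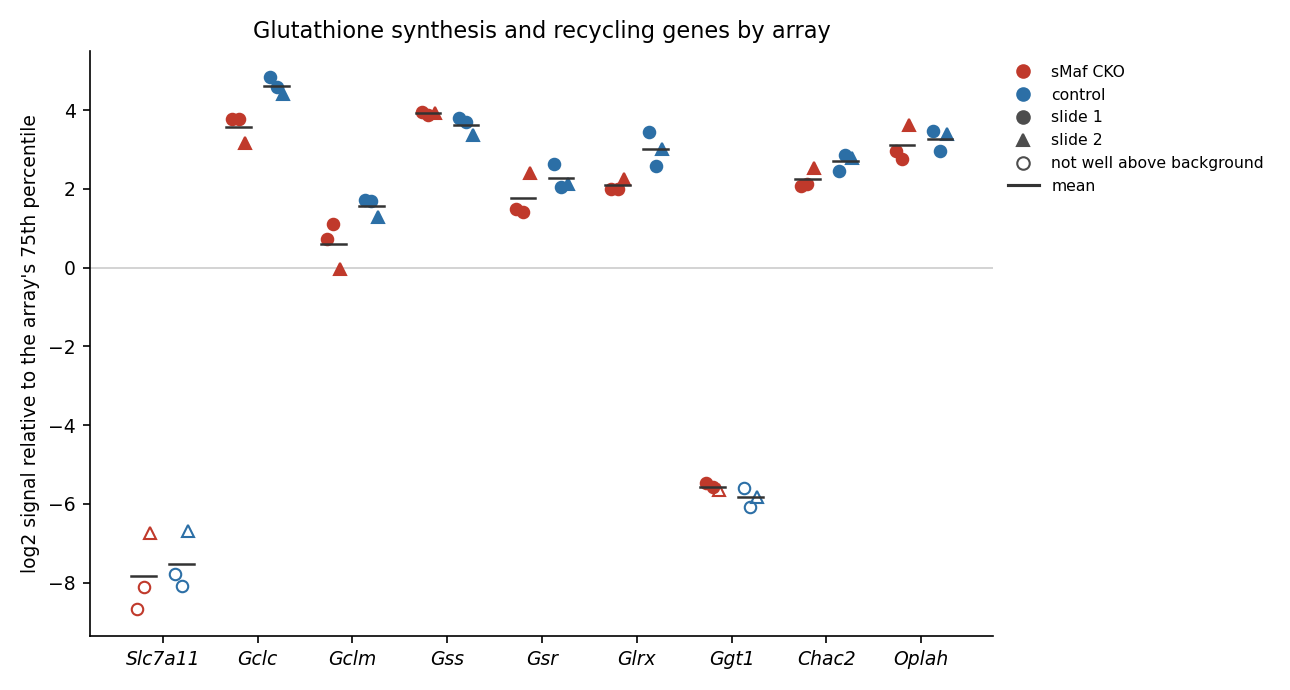
Log2 signal of each gene relative to the 75th percentile of its array, for every array (red, sMaf CKO; blue, control; circles, slide 1; triangles, slide 2), with the group mean as a bar and open symbols where the probe was not well above background. For genes with several probes the brightest is shown. Gclc, Gclm and Glrx lie lower on every sMaf CKO array than on any control array, Gss lies higher, and Slc7a11 is dim on all 6 arrays.

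The arrays lay on 2 slides. Slide 1 carried replicates 1 and 2 of each genotype and slide 2 carried the arrays numbered 3, so a value within slide 2 compares 1 array with 1. The 75th percentile of the processed signal, to which levels are relative, was 484 to 961 on sMaf CKO arrays and 483 to 609 on control arrays. Mafg, which encodes a small Maf protein, was at 3.20%, 1.22% and 14.8% of its control mean on sMaf CKO arrays 1, 2 and 3. Its log2 fold change of -4.69 missed the threshold (SE 0.79, adjusted p = 0.0533), and with slide as a block it passed (adjusted p = 0.0207, with 0.00373 to 0.194 over 18 alternatives). Maff differed by 0.15 (adjusted p = 0.911) and Mafk by 0.21 (adjusted p = 0.759). Whether these probes lie within a deleted part is not known. Of the 9 hepatocyte markers examined 8 were tested, all with a negative fold change and none past the test by limma (2 had an unadjusted p under 0.05), with a median of -0.51. Their summed level was 989 to 1637 on sMaf CKO arrays and 1674 to 1988 on control arrays. Apoa1, Serpina1c and Cyp2e1 were lower without overlap, and Alb, Ttr, Apob, Tat and Hnf4a overlapped between genotypes. The summed level of 9 of 10 macrophage markers was 140 to 199 on sMaf CKO arrays and 74.8 to 118 on control arrays, and 1 of them, Trem2, rose (log2 fold change 4.18, limma adjusted p = 0.0105). The other Trem2 probe gave 2.86, and the probe used was well above background on 2 of 3 control arrays. The macrophage sum is mostly Cd5l, with log2 levels of 7.11, 6.75 and 6.52 on sMaf CKO arrays and 6.14, 6.05 and 5.54 on control arrays 1, 2 and 3. Cd5l, Clec4f, Lyz2, Itgam and Trem2 were higher without overlap, and Adgre1, Csf1r, Timd4 and Ccr2 overlapped between genotypes. The other Itgam probe gave a log2 fold change of -0.11, and the other Adgre1 probe gave -0.26. Stellate cell markers (all 6) summed to 20.5 to 23.7 on sMaf CKO arrays and 11.8 to 15.4 on control arrays, with Reln the largest part. Lrat, Reln and Col1a1 were higher without overlap, and Des, Pdgfrb and Acta2 overlapped. Of 5 tested cholangiocyte markers, Krt7, Krt19, Sox9 and Spp1 overlapped between genotypes and Epcam was higher without overlap. Their summed level, 11.0 to 49.8 on sMaf CKO arrays and 9.46 to 11.9 on control arrays, is mostly Spp1, with log2 levels of 5.58, 3.29 and 3.97 on sMaf CKO arrays and 2.99, 3.34 and 3.42 on control arrays 1, 2 and 3. Endothelial, erythroid, lymphocyte and neutrophil markers were also summed, and each of these sums overlapped between genotypes. The endothelial sum was 40.2 to 53.2 on sMaf CKO arrays and 44.9 to 64.2 on control arrays. Among the tested genes of these lists only S100a9, a neutrophil marker, did not overlap (higher in sMaf CKO). In bulk liver, fewer cells of a type and less RNA per cell cannot be told apart. The part of these markers in the values below was not tested. With the arrays scaled on 8 bright E1A spike-in probes instead, the median log2 fold change of all features was 0.25, against -0.05 here. This scaling adds the same amount to the fold change of every gene, so it changes no difference between genes.

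Promoter windows, from 250 bases before to 50 bases after a transcript start, were held for 6 of the 9 genes (10 windows) in the RefSeq-based table on GRCm38.p6. The windows of Gclm, Glrx and Gss are shown, since Gclm and Glrx were the lowest genes in sMaf CKO liver that have a window and Gss was the one higher gene. Capitals mark matches on either strand to TGACNNNGC or TGAGNNNGC, the core bound by CNC factors with small Maf proteins. Also marked are matches to the AP-1 site TGAGTCA, which by its strand can overlap either of these. All are written 5′ to 3′ on the strand of the gene.
Gclm (chr3:122245307-122245606, plus strand): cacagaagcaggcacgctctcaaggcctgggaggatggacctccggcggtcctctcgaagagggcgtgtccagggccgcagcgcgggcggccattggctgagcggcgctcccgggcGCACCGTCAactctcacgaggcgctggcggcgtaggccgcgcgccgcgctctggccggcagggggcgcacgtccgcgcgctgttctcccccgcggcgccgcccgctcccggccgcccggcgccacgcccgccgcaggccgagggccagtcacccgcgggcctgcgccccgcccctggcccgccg
Glrx (chr13:75839635-75839934, plus strand): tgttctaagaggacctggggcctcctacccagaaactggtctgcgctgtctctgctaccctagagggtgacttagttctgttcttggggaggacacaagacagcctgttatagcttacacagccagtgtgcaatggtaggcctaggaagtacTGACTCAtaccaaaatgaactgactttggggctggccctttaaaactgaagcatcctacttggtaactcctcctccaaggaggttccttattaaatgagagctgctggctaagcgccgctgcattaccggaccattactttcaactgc
Gss (chr2:155592761-155593060, minus strand): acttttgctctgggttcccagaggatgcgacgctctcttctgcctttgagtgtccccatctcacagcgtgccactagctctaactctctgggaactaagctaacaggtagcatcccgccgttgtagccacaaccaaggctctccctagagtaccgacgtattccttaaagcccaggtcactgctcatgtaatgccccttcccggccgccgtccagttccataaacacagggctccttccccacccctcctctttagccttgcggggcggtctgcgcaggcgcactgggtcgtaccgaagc

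The Gclm window held 1 match to TGACNNNGC, on the reverse strand, starting 134 bases before the transcript start. Its GC content was 79.7%, with 48 CG dinucleotides. The Glrx window held 1 AP-1 site 98 bases before the start and neither CNC core, with a GC content of 50% and 4 CG dinucleotides. The Gss and Chac2 windows held no match to any of these letters, that of Slc7a11 held 1 match to TGAGNNNGC 97 bases before the start, and 3 of the 4 Ggt1 windows held at least 1 CNC core. Over 32544 distinct windows of the same length, 27.9% held at least 1 CNC core (12.4% TGACNNNGC, 17.8% TGAGNNNGC) and 5.19% an AP-1 site. A match is a description of these letters and not evidence of binding.

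Uptake of cystine begins with xCT, the light chain encoded by Slc7a11. Its 3 probes were not well above background on any of the 6 arrays. The processed signal of the brightest probe was 2.36, 2.41 and 4.52 on sMaf CKO arrays 1, 2 and 3, against 2.62, 2.23 and 4.70 on control arrays 1, 2 and 3. The highest value within each genotype was that of the slide 2 array, and the genotypes overlapped. Slc7a11 did not pass the filter, so it was not among the genes tested and has no fold change in the main fit.

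Gclc encodes the catalytic subunit of glutamate-cysteine ligase. Its log2 level was 3.78, 3.77 and 3.17 on sMaf CKO arrays 1, 2 and 3, against 4.83, 4.59 and 4.41 on control arrays 1, 2 and 3. Every sMaf CKO array lay below every control array, at 56.3%, 55.9% and 37.0% of the control mean. The mean was 3.57 ± 0.35 in sMaf CKO and 4.61 ± 0.21 in control liver (SD, n = 3 each), a log2 fold change of -1.03 (SE 0.25, 95% interval -1.63 to -0.44), or 2.05-fold lower. The difference did not pass limma's test (adjusted p = 0.124) and stood at rank 673 of 21059 by its p. It was -0.94 within slide 1 and -1.23 within slide 2.

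Gclm encodes the modifier subunit, which lowers the amount of glutamate that the ligase needs. Its log2 level was 0.74, 1.11 and -0.03 on sMaf CKO arrays 1, 2 and 3, against 1.71, 1.70 and 1.27 on control arrays 1, 2 and 3. The genotypes again did not overlap, although sMaf CKO array 2 came within a short distance of control array 3. The sMaf CKO arrays were at 56.5%, 73.0% and 33.1% of the control mean. The mean was 0.61 ± 0.58 in sMaf CKO and 1.56 ± 0.25 in control liver (SD, n = 3 each), and the log2 fold change was -0.96 (SE 0.33, 95% interval -1.71 to -0.20, limma adjusted p = 0.214), with -0.78 within slide 1 and -1.30 within slide 2. For both subunits the lowest array was sMaf CKO array 3, which kept the most Mafg signal of the 3. Control array 3, on the same slide, was also the lowest control array for both subunits. Relative to the control means, on sMaf CKO arrays 1, 2 and 3, Gclc was at -0.83, -0.84 and -1.43, Gclm at -0.82, -0.45 and -1.59, and the 8 hepatocyte markers averaged -0.91, -0.60 and -0.27. On arrays 1 and 2 the subunits and the hepatocyte markers thus differed from control by similar amounts, and on array 3 the subunits differed by more. The part of the hepatocyte markers in the values of Gclc and Gclm was not tested.

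The profiles of the 2 subunits over the 6 arrays were close to each other (Pearson r = 0.952, n = 6 arrays, which include the genotype difference). Among 14179 other genes with a symbol, the profiles most like that of Gclc were those of Gprin3 (r = 0.9982), Ttc7b (r = 0.9938) and Slc38a2 (r = 0.9924), and those most like Gclm were Mief2 (r = 0.9954), Shb (r = 0.9927) and Ubr3 (r = 0.9916). With 6 points and this many genes, such values are a description only. None of these 6 genes passed limma's test, the log2 fold changes lying between -0.28 (Ttc7b) and -1.01 (Gprin3).

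Gss encodes glutathione synthetase, the enzyme of the second step. Its log2 level was 3.95, 3.87 and 3.93 on sMaf CKO arrays 1, 2 and 3, against 3.80, 3.71 and 3.36 on control arrays 1, 2 and 3. The sMaf CKO arrays lay close together and above every control array, of which replicate 3 was the lowest. The mean was 3.92 ± 0.04 in sMaf CKO and 3.62 ± 0.23 in control liver (SD, n = 3 each), and the log2 fold change was 0.29 (SE 0.21, 95% interval -0.20 to 0.79, limma adjusted p = 0.523), with 0.15 within slide 1 and 0.57 within slide 2. In all, 4 of the 7 genes above background did not overlap between genotypes, Gss higher and Gclc, Gclm and Glrx lower, where over all features 22.9% did not overlap, 11.3% higher and 11.6% lower.

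**Figure D2:**
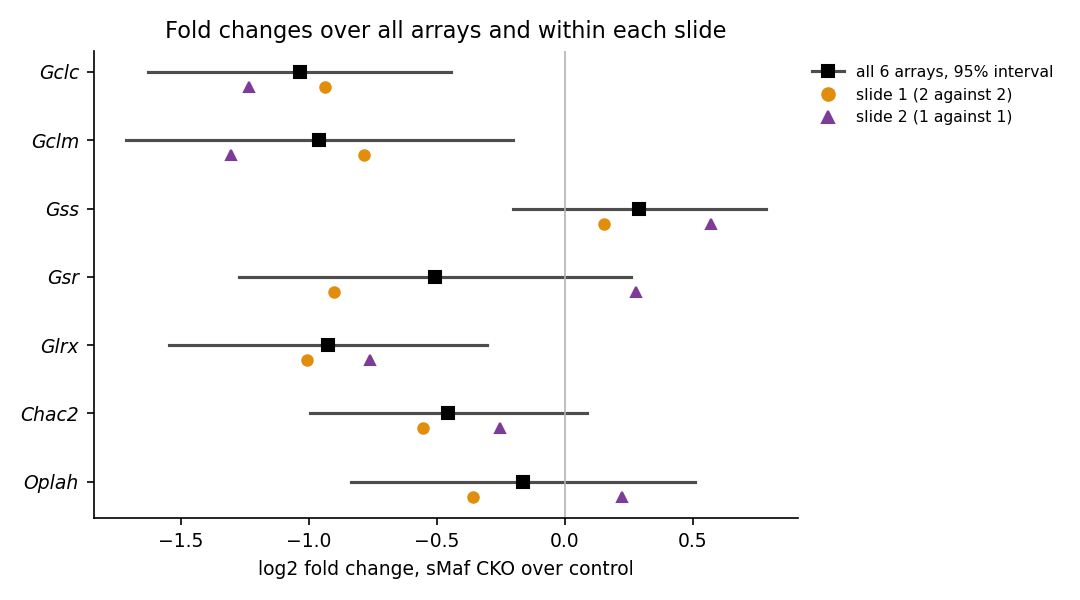
Log2 fold change, sMaf CKO over control, of the 7 genes well above background, with the 95% interval from limma over all 6 arrays (squares and lines), the value within slide 1 (circles) and the value within slide 2 (triangles). Gclc, Gclm, Glrx and Chac2 are negative on both slides, and Gss is positive on both. Oplah and Gsr, the latter shown by its brightest probe, change sign between the slides.

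A ratio of 2 genes within an array does not depend on the factor by which that array is scaled, so the first and second steps of synthesis were also set against each other. This comparison was chosen after the values were seen. The log2 signal ratio of Gss over Gclc was 0.17, 0.10 and 0.76 on sMaf CKO arrays 1, 2 and 3, against -1.03, -0.88 and -1.05 on control arrays 1, 2 and 3. The genotypes were far apart, with means of 0.34 ± 0.36 in sMaf CKO and -0.98 ± 0.09 in control liver (SD, n = 3 each), a difference of 1.33. No p is given, since Gss lay above and Gclc below every control array, which fixes that this ratio could not overlap. The same holds for Gss over Gclm, which differed by 1.25. The ratio of Gclm over Gclc overlapped between genotypes, with -2.97 ± 0.28 in sMaf CKO and -3.05 ± 0.14 in control liver (SD, n = 3 each; difference 0.08, exact two-sided permutation p = 0.7, where 3 arrays against 3 can give no less than 0.1). The ratio of Glrx over Gclc differed by 0.11 (exact two-sided permutation p = 0.8, n = 3 each). Adjusted by the Benjamini-Hochberg method over the 4 ratios computed, both exact p-values were 0.8.

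**Figure D3:**
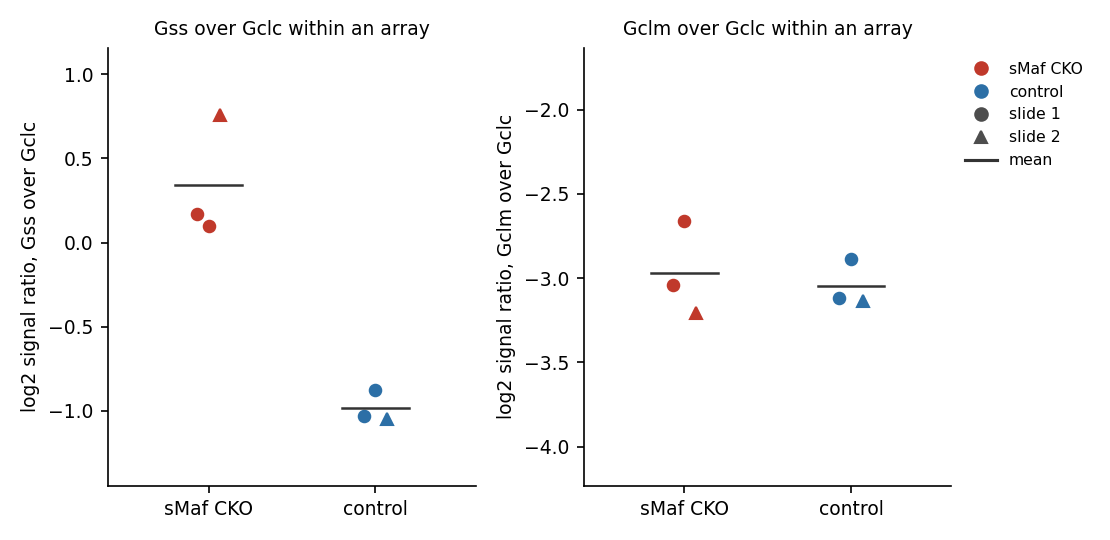
Log2 ratio of processed signals within each array, Gss over Gclc on the left and Gclm over Gclc on the right (red, sMaf CKO; blue, control; circles, slide 1; triangles, slide 2; bars, means; both vertical axes span the same range). Gss over Gclc is 0.10 to 0.76 on sMaf CKO arrays and -1.05 to -0.88 on control arrays, while Gclm over Gclc overlaps.

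Gsr encodes glutathione reductase and was read by 3 probes, which disagreed on slide 2. By the brightest, which stands for the gene, the log2 level was 1.48, 1.40 and 2.41 on sMaf CKO arrays 1, 2 and 3, against 2.63, 2.05 and 2.13 on control arrays 1, 2 and 3. sMaf CKO array 3 lay above 2 of the control arrays, so the genotypes overlapped. The log2 fold change was -0.51 (SE 0.33, 95% interval -1.27 to 0.26, limma adjusted p = 0.476), with -0.90 within slide 1 and 0.28 within slide 2. Probe A_52_P91604 behaved alike, with -1.02 within slide 1 and 0.38 within slide 2. By probe A_52_P346738 the sMaf CKO arrays were at 67.2%, 61.2% and 62.0% of the control mean and did not overlap with control arrays, with a log2 fold change of -0.66 (SE 0.23, limma adjusted p = 0.233 over all kept probes), -0.71 within slide 1 and -0.54 within slide 2. All 3 probes carry the same transcript accession, and they give the same direction on slide 1 and differ in direction on slide 2.

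**Figure D4:**
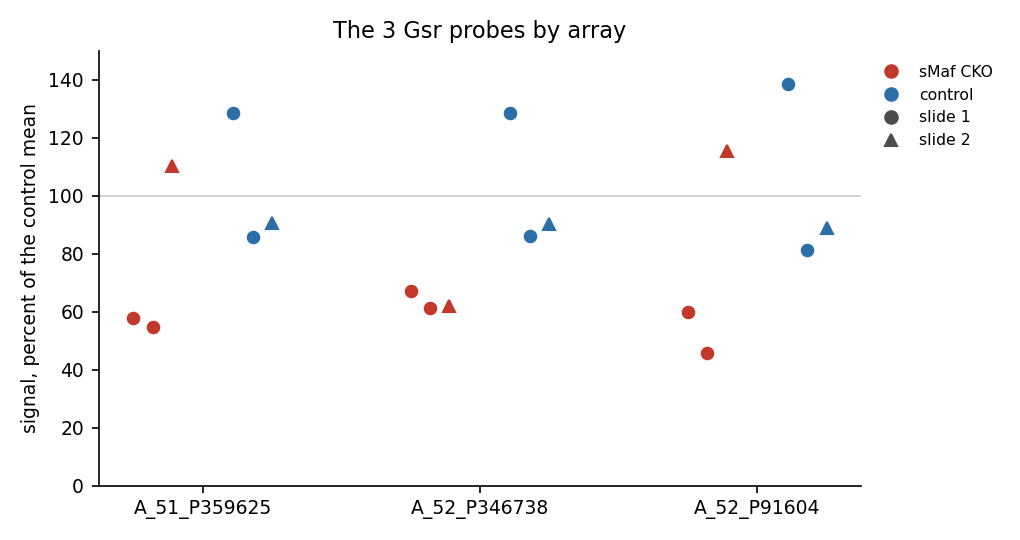
Signal of each of the 3 Gsr probes as percent of its control mean, for every array (red, sMaf CKO; blue, control; circles, slide 1; triangles, slide 2). On sMaf CKO array 3 (red triangle) the middle probe is at 62.0% and the others are at 110% and 115%.

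Glrx encodes glutaredoxin 1, which uses glutathione to remove glutathione from protein thiols. Its log2 level was 2.0, 2.01 and 2.25 on sMaf CKO arrays 1, 2 and 3, against 3.43, 2.58 and 3.01 on control arrays 1, 2 and 3. The genotypes did not overlap, and the sMaf CKO arrays lay closer together than the control arrays. They were at 49.7%, 49.9% and 59.1% of the control mean. The mean was 2.09 ± 0.14 in sMaf CKO and 3.01 ± 0.43 in control liver (SD, n = 3 each), and the log2 fold change was -0.92 (SE 0.27, 95% interval -1.54 to -0.30, limma adjusted p = 0.166), or 1.90-fold lower, with -1.0 within slide 1 and -0.76 within slide 2.

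Of the 3 genes of glutathione breakdown and salvage, Chac2 and Oplah were well above background on all 6 arrays. Ggt1 encodes gamma-glutamyltransferase 1, a cell surface enzyme that starts the breakdown of extracellular glutathione, and the number of arrays with its probe well above background was 2 of 3 for sMaf CKO and 0 of 3 for control. Its processed signal was 21.8, 14.1 and 9.72 on sMaf CKO arrays 1, 2 and 3, against 12.1, 9.01 and 8.47 on control arrays 1, 2 and 3. On the scaled log2 levels, with means of -5.56 in sMaf CKO and -5.83 in control liver, the genotypes overlapped. Set against the lowest signal that counts as well above background on the control arrays, the sMaf CKO mean was not higher. Ggt1 therefore has no fold in the main fit. Chac2, a cytosolic gamma-glutamylcyclotransferase that degrades glutathione, had log2 levels of 2.08, 2.12 and 2.52 on sMaf CKO arrays 1, 2 and 3, against 2.46, 2.85 and 2.78 on control arrays 1, 2 and 3. Its groups overlapped through sMaf CKO array 3 and control array 1, and the log2 fold change was -0.45 (SE 0.23, 95% interval -0.99 to 0.09, limma adjusted p = 0.375). Oplah, 5-oxoprolinase, returns the oxoproline formed in breakdown to glutamate. It had log2 levels of 2.97, 2.75 and 3.61 on sMaf CKO arrays 1, 2 and 3, against 3.47, 2.97 and 3.39 on control arrays 1, 2 and 3. The genotypes overlapped widely (log2 fold change -0.16, SE 0.29, 95% interval -0.84 to 0.51, limma adjusted p = 0.809), with -0.36 within slide 1 and 0.22 within slide 2.

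Around the 9 genes, 38 further genes of the pathway were examined in 5 lists, and 36 of them were tested. None passed the test by limma, against 0.541% of all features, while 5 were higher and 5 lower with an unadjusted p under 0.05. Over all features 8.71% were higher and 8.1% lower by that rule. The median log2 fold change of the 36 was -0.20, against -0.05 over all features. With slide as a block 2 fell, against 1.61% of all features in either direction (0.992% higher and 0.622% lower), and none of the 7 tested genes above passed (the lowest adjusted p was 0.0615, for Gclc, for which 18 alternatives gave 0.0615 to 0.770). With quantile normalization, the list medians given next became -0.25 for cysteine supply, -0.06 for breakdown, 0.56 for export, -0.06 for the other glutaredoxins and 0.07 for NADPH supply.

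Genes that supply cysteine and carry cystine had a median of -0.38 over 8 tested. Slc3a2, the heavy chain that pairs with xCT and other amino acid transporters, had log2 levels of 4.41, 4.26 and 4.09 on sMaf CKO arrays and 3.78, 3.48 and 3.43 on control arrays 1, 2 and 3, without overlap (0.69, SE 0.22, adjusted p = 0.190). The other Slc3a2 probe gave 0.50. Slc7a9, a light chain of another cystine transporter, was near background, and well above it on 3 of 3 sMaf CKO arrays and 2 of 3 control arrays. It differed by 1.32 (SE 0.39, adjusted p = 0.170), and by 0.51 with normexp background correction. Breakdown genes had a median of -0.16 over 9 tested. Ggt5, a relative of Ggt1 that acts on leukotrienes, differed by 0.73 (SE 0.21, adjusted p = 0.160), and by 0.42 with its other probe. Chac1, the stress-induced relative of Chac2, differed by -1.30 (SE 0.43, adjusted p = 0.204), and the values of both genes did not overlap between genotypes.

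Genes of glutathione export and mitochondrial transport had a median of 0.55 over 6 tested. Abcc5 (1.07, SE 0.27, adjusted p = 0.128) and Abcc4 (0.89, SE 0.32, adjusted p = 0.238) are efflux pumps and had the smallest p of the list. Single probes gave 0.89 to 1.16 for Abcc5 and 0.37 to 0.89 for Abcc4. With the mean of its probes Abcc4 was at 0.63 (limma adjusted p = 0.537). Other glutaredoxins and glutathione-using enzymes had a median of -0.39 over 8 of 9 genes. Glrx5, a mitochondrial glutaredoxin of iron-sulfur cluster assembly, differed by -0.73 (SE 0.28, adjusted p = 0.260) and Hagh, which with Glo1 detoxifies methylglyoxal, by -0.60 (SE 0.32, adjusted p = 0.396). The value of Hagh was -0.25 without sMaf CKO replicate 1 and -0.22 with quantile normalization. Enzymes that supply NADPH to glutathione reductase had a median of -0.05 over 5 of 6 genes. Me1, the cytosolic malic enzyme, had log2 levels of -0.35, 1.10 and 0.55 on sMaf CKO arrays and 3.41, 2.79 and 2.37 on control arrays 1, 2 and 3 (-2.43, SE 0.42, limma adjusted p = 0.0567). Idh1, the cytosolic isocitrate dehydrogenase, had 0.75, 0.97 and 0.36 on sMaf CKO arrays and 2.05, 1.95 and 1.75 on control arrays 1, 2 and 3 (-1.22, SE 0.24, limma adjusted p = 0.0750). The levels of both lay lower on every sMaf CKO array, and they were the 2 genes that fell with slide as a block (limma adjusted p = 0.0470 for Me1, with 0.0299 to 0.218 over 18 alternatives, and 0.0402 for Idh1, with 0.0329 to 0.682).

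**Figure D5:**
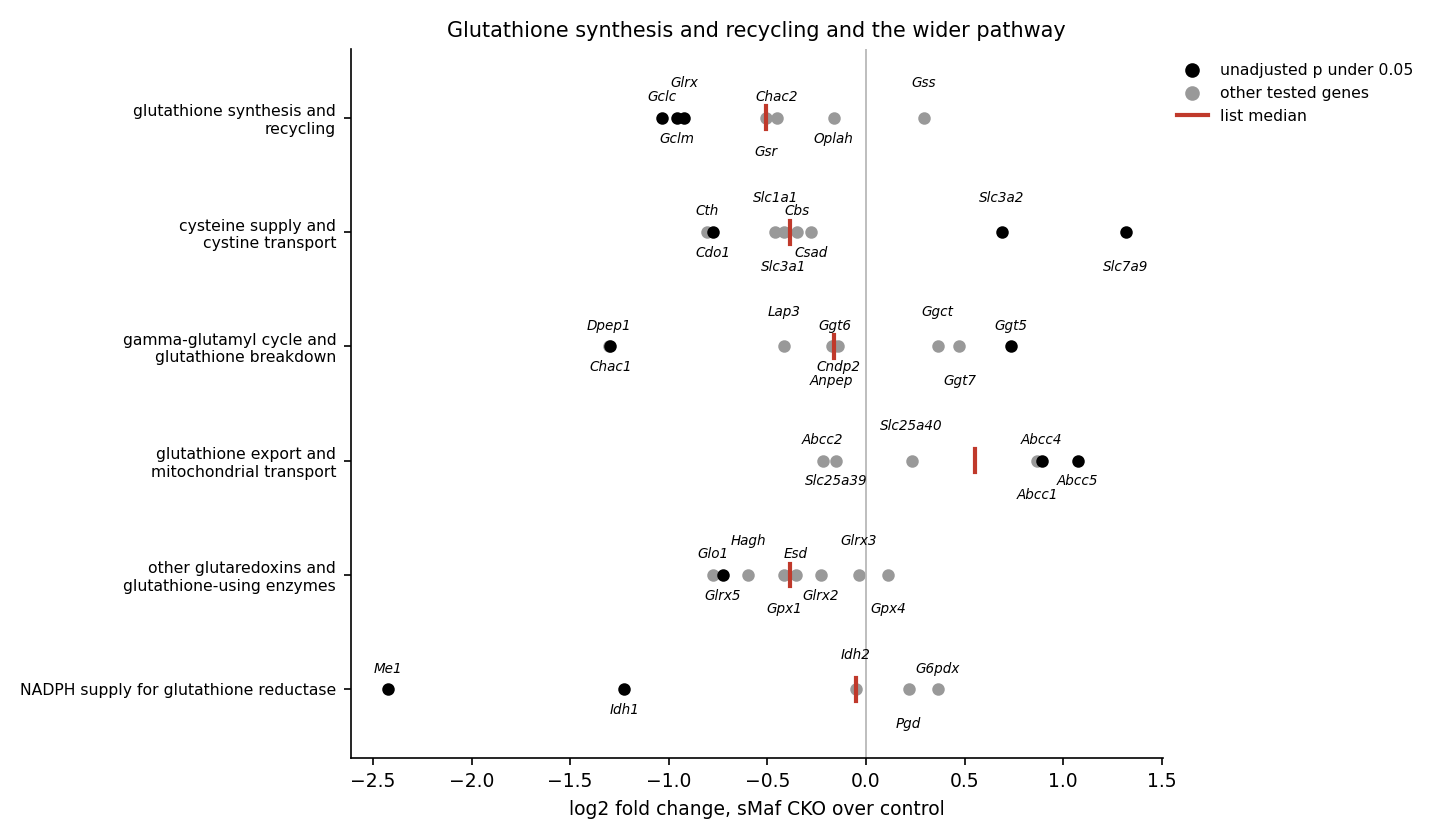
Log2 fold change, sMaf CKO over control, of every tested gene among the 9 (top row) and the 5 lists of the wider pathway, with the median of each list as a red bar and black points for an unadjusted p under 0.05. No point passes the adjusted threshold. Among the black points Me1 (-2.43), Chac1 (-1.30) and Idh1 (-1.22) lie farthest to the left, and Slc7a9 (1.32, near background) and Abcc5 (1.07) farthest to the right. With normexp background correction Slc7a9 is at 0.51, left of Abcc5 (0.90) and Abcc4 (0.80).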

How the data were processed

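Liver RNA of 3 sMaf CKO and 3 control samples was hybridised to 1 array each, after amplification of 500 ng of total RNA, per the labels' protocols. The deposited intensity of a spot is Agilent Feature Extraction's processed signal (version 10.7.3.1, protocol GE1_107_Sep09), background-subtracted within its array, per the file headers. The deposited value table is in log2 units, and its making is not described in the labels or headers. Compared with the scanner data, each column followed the log2 processed signal minus the array's 75th percentile, centred per probe (r = 0.9996 to 1 over 41174 probes). Their medians were -0.10, -0.11 and 0.09 for sMaf CKO and 0.05, -0.02 and 0.08 for control arrays 1, 2 and 3.

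Here, log2 processed signals were averaged over the unflagged spots of a probe and the array's 75th percentile over non-control probes was subtracted. The filter kept 27859 of 41174 probes, those called well above background by 3 or more arrays, and the brightest kept probe stood for a gene. Probes were named through their transcript accession in a RefSeq gene table on GRCm38.p6 (26690 matched to 1 symbol each, 14484 unmatched), while the headers name mm9 for the array design. The test was limma's (version 3.58.1, R 4.3.3, lmFit then eBayes), with genotype as the single factor, with Benjamini-Hochberg adjustment over 21059 genes and transcripts and a threshold of 0.05, and the code was tested on simulated data. The p-values of the main fit are set against the spread between 3 samples a group. Those of the ratios count the relabellings of the arrays that give at least as large a difference. With a block, limma's p-values are set against the spread left after it. With 1 array left out or within slide 1, limma's p-values rest on fewer samples. For each list of the wider pathway the 2 genes with the smallest p are named, as none passed the threshold, and for Gclc and Gclm the 3 genes with the highest correlation. The genes and lists were chosen with earlier results of these data known. Scaling on spike-in probes and values within each slide were added after seeing the data. Gstk1 and Nnt had no matched probe.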

Additional observations from a re-analysis of the deposited data

How the results depend on the processing

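None of the 7 tested glutathione genes passed limma's test under any of 19 alternatives, and their median log2 fold change lay between -0.78 and -0.21 over 19 alternatives. The threshold of 0.01, 1 of the alternatives for the test, could add no gene, and the fits on fewer arrays had less power. Gclc (-1.23 to -0.73) and Gclm (-1.30 to -0.64) stayed lower and Gss (0.15 to 0.59) higher under every alternative run. For these 3 genes the genotypes did not overlap, so leaving out arrays or staying within a slide could not change the sign. Changes of filter, the mean of probes, the blocks, and trend and robust eBayes left their estimates unchanged. By its brightest probe Gsr was 0.28 within slide 2, with 0.38 and -0.54 by its other probes. Oplah was -0.41 to 0.015 with 1 array left out (positive without sMaf CKO replicate 2), 0.14 with spike-in scaling and 0.22 within slide 2. With 1 array left out, Maff was -0.37 to 0.52 (negative without control replicate 2 and, at -0.11, without sMaf CKO replicate 3) and Mafk -0.070 to 0.44 (negative without control replicate 2), and Mafk was -0.29 within slide 2. Spike-in scaling adds the same amount to every gene, which accounts for the sign of Oplah there; the cause of the other changes of sign was not tested. Of the wider pathway, 1 gene passed with median scaling (2.78% of those tested, against 1.2% of all features) and 2 each with probes well above background on all 6 arrays (5.88% against 1.55%), with slide as a block (5.56% against 1.61%), and with trend and robust eBayes (5.56% against 1.46%). The 114 genes that passed over the whole array became 74 with normexp, 22 with quantile normalization, 252 with median scaling, 1 without the filter, 267 with the filter on all 6 arrays, 340 with slide as a block, 308 with trend and robust eBayes, 196 within slide 1, 12 with spike-in scaling and 3 at an adjusted p under 0.01. Leaving out 1 array gave 3 (without sMaf CKO replicate 1) to 294 (without sMaf CKO replicate 3). Whether the replicate numbers pair the samples cannot be told from these data. The correlation of same-numbered deviations was 0.06, 0.17 and 0.43 for replicates 1, 2 and 3, and the arrays numbered 3 are also those of slide 2. With the replicate number as a block, 291 genes passed and none of the 7. Without the filter on dim probes, Slc7a11 (-0.32, limma adjusted p = 0.863) and Ggt1 (0.28, limma adjusted p = 0.790) could be fitted. Their signals were at or near background, so neither value is read as a change.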
